A study of Mus musculus with 8 samples.

Results

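Livers export triglyceride as very low density lipoprotein (VLDL), and 10 genes of that route were followed here. They cover lipid loading of the particle (Mttp and Tm6sf2), its export from the endoplasmic reticulum (ER; Sar1b, Sec23a, Surf4, Mia2 and Mia3), sorting in the Golgi (Sort1) and the lipases that act on lipoproteins after release (Lipc and Lipg). The genes were named by role, with earlier results of these data known, and all 10 were found by Ensembl identifier among the 14317 mouse genes of the deposited table and passed the filter on low values. RNA was sequenced from livers of female mice, 4 given an empty silastic vehicle pellet (Con-Veh) and 4 given a 10 mm pellet of dihydrotestosterone (DHT), a potent androgen (Con-DHT). All mice were on a Western diet (WD) for 8.5 weeks. The labels give the genotype as WT, while the study's methods describe its control females as carrying a floxed allele without a Cre transgene. Pellets were implanted at 7 weeks of age and replaced every 4 weeks, and a pellet treats the whole animal rather than the liver alone. Each mouse gave 1 library, with between 13123962 (Con-DHT replicate 4) and 17815944 (Con-Veh replicate 4) reads on mouse genes.

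In hepatocytes the microsomal triglyceride transfer protein loads lipid onto apolipoprotein B while that protein is still entering the ER. The nascent VLDL is too large for an ordinary transport vesicle, and leaves the ER through sites where the COPII coat, cargo receptors and large transmembrane organisers meet. Once in the circulation the particle is remodelled by lipases anchored on vessel walls, and its remnants return to the liver through receptors and heparan sulfate.

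The livers carried the markers of their tissue. Alb, the serum albumin gene and the most abundant hepatocyte marker, averaged 928460 normalised reads in Con-Veh and 640920 in Con-DHT, and the limma adjusted p was 0.52. The 4 measured hepatocyte markers, of 5 listed (Tf was not in the table), summed to 1163200 ± 325040 (SD, n = 4) and 913840 ± 104240, with overlap, and limma called 0 of them. Serpina3k, a hepatocyte serpin, went the other way from Alb, from 43620 to 78924 normalised reads (log2 fold change 0.80, adjusted p 0.076 in limma, 0.0498 in edgeR and 0.0020 in DESeq2), and Apoa1 (0.05) and Ttr (-0.10) were near 0. Markers of some other cell types also differed between the groups. The summed markers of sinusoidal endothelial cells were 4972 ± 252 (SD, n = 4) in Con-Veh and 3915 ± 336 in Con-DHT, and the groups did not overlap. Of 8 such markers limma called 2 lower (Stab2, the most abundant, and Lyve1, whose groups overlapped), against 2.61% of all 14312 tested genes. A log2 fold change below 0 was found for 7 of the 8, and for 7368 of all tested genes. Kdr did not differ (0.0003), and Pecam1 (limma adjusted p = 0.50) and Fcgr2b (0.46) were not called. Kupffer cell and macrophage markers summed to 4672 ± 316 and 3382 ± 386, again without overlap. Of these 7 limma called 4 lower (Clec4f, the most abundant, Vsig4, Cd68 and C1qa), against the same 2.61% of all tested genes. For both sums the exact two-sided permutation p was 0.029, the smallest that 4 against 4 allows. Stellate cell markers (0 of 7 called, Ecm1 most abundant) summed to 4024 ± 2034 and 3863 ± 292, and cholangiocyte markers (0 of 5 called, Spp1 most abundant) to 968 ± 69.9 and 973 ± 143.

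Con-DHT replicates 3 and 4 stood apart in Cfd, which encodes adipsin, at 1713 and 2033 normalised reads against 307 to 502 in the other 6 livers. Cfd carried the summed adipocyte markers, which were 2009 and 2524 there and 521 to 785 elsewhere. Adipoq was also highest in both (228 and 289), but replicate 3 had the lowest Plin1 (67.4) and Lep (1.02) of the 8 livers, and 0 of the 4 markers were called. Results are therefore also given without both of these Cfd-rich libraries. Ptprc and Ighm, the measured leukocyte markers, summed to 239 ± 47.9 in Con-Veh and 175 ± 27.7 in Con-DHT without overlap, and neither was called. S100a8, S100a9, Cd3e and Cd79a were not in the table. Of the pancreatic markers Cela1 was higher in Con-DHT (70.2 ± 10.7 against 141 ± 46.0, limma adjusted p = 0.034), and Cpa1, Pnlip and Prss2 were not in the table. The part of these cell markers in the results that follow was not tested, and in bulk liver RNA fewer cells of a type cannot be told apart from less RNA per cell.

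**Figure D1:**
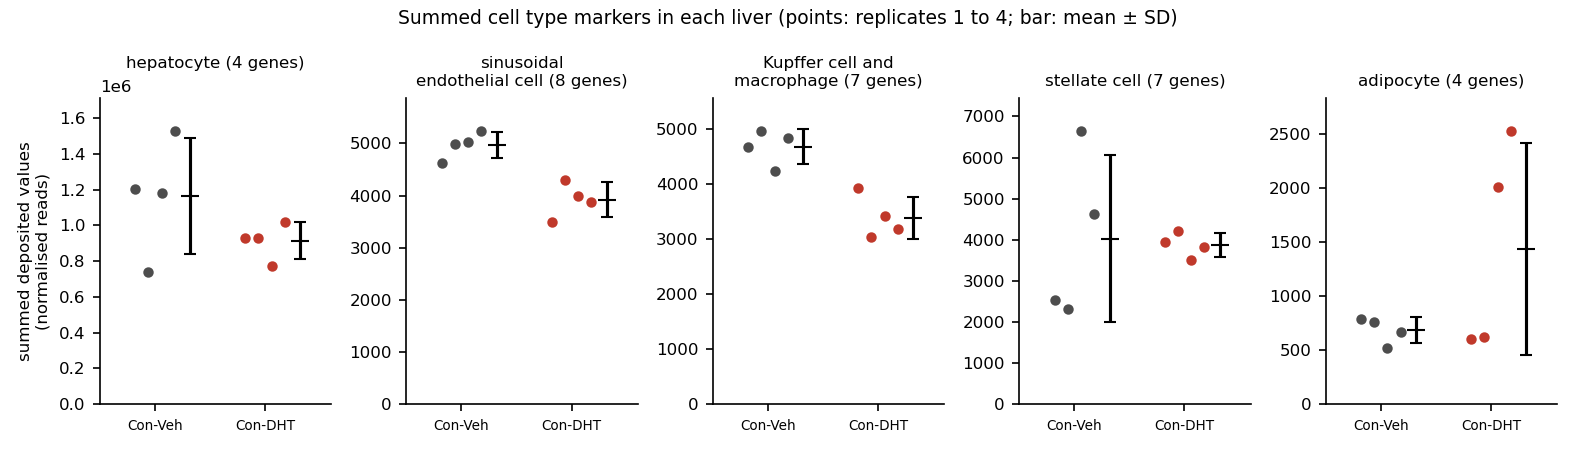
Summed normalised reads of cell type markers (y axis, linear from 0) in each of 4 Con-Veh and 4 Con-DHT livers (points, replicates 1 to 4 from left to right), with mean ± SD beside them. Endothelial and Kupffer sums did not overlap between groups, and Con-DHT replicates 3 and 4 had adipocyte sums of 2009 and 2524.

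DHT was accompanied by higher Sec23a and lower Lipc, the 2 of 10 genes that passed the limma test across all 14312 tested genes (Benjamini-Hochberg adjusted p of at most 0.05). Over all tested genes the test called 7.21%, with 4.60% higher and 2.61% lower in Con-DHT, so that 1 call in each direction among 10 genes is a small count to set against that background. An unadjusted p of at most 0.05 was reached by 5 of the 10 (23.2% of all genes). In 3 of the 10 (Mttp and Sec23a, higher, and Lipc, lower) the groups did not overlap, against 15.1% of all genes, 8.49% higher and 6.62% lower. On the reads recovered from the table, edgeR called 1 of the 10 (Sec23a; 7.15% of all genes) and DESeq2 called 4 (Sec23a, Lipc, Tm6sf2 and Lipg; 11.0%). The median log2 fold change of the 10 genes was 0.11, and that of all tested genes was -0.0081.

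**Figure D2:**
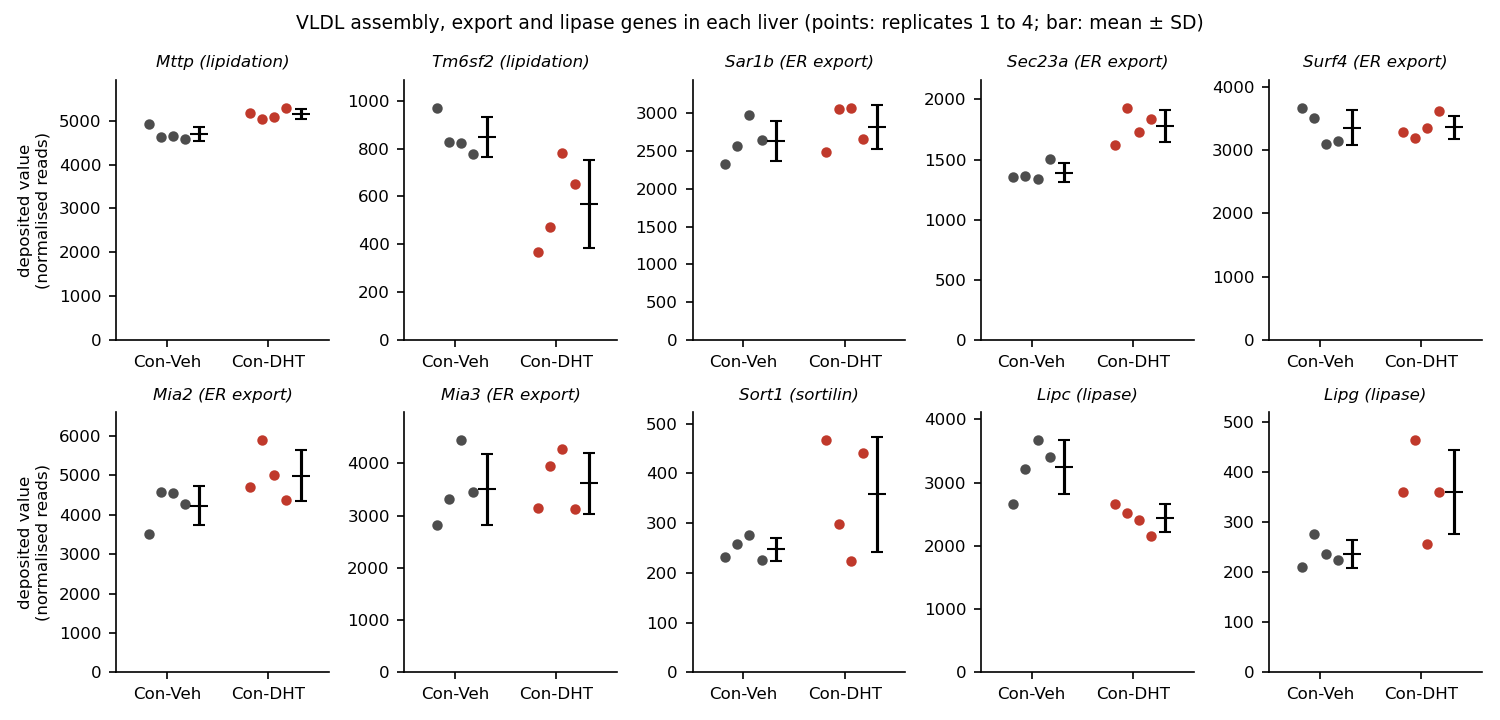
Deposited normalised reads (y axes, linear from 0) of the 10 genes in each of 4 Con-Veh and 4 Con-DHT livers (points, replicates 1 to 4 from left to right), with mean ± SD beside them. Mttp, Sec23a and Lipc show no overlap between groups, and Con-DHT replicate 3 lies within the Con-Veh range for Tm6sf2 (780) and Lipg (257) and just under it for Sort1 (225).

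Levels of different genes were compared as normalised reads per kilobase of exon. In Con-Veh, Sar1b was highest at 2095 ± 212 per kilobase, followed by Lipc (1509 ± 198) and Surf4 (1022 ± 83.7). Mia3 (791 ± 153) and Mttp (758 ± 25.2) did not differ beyond their spread. Tm6sf2 (447 ± 43.9) and Mia2 (376 ± 44.2) had overlapping spreads, and Sec23a followed at 287 ± 16.1. Lipg (50.3 ± 5.94) and Sort1 (32.7 ± 3.03) were the lowest of the 10. In Con-DHT, Tm6sf2 (299 ± 96.2) stood below Mia2 (444 ± 58.2) and Sec23a (367 ± 27.8), though its spread reached those of both.

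Sec23a encodes the COPII inner coat subunit that switches on GTP hydrolysis by the SAR1 proteins. Its deposited values were 1355, 1361, 1341 and 1507 normalised reads in the 4 Con-Veh livers and 1617, 1929, 1726 and 1833 in the 4 Con-DHT livers. Every Con-DHT liver lay above every Con-Veh liver. The log2 fold change was 0.35 (SE 0.08, 95% interval 0.18 to 0.52), with an adjusted p of 0.021 in limma, 0.025 in edgeR and 0.0014 in DESeq2. The limma call was lost without Con-Veh replicate 2 (adjusted p = 0.061) or 3 (0.054) and without Con-DHT replicate 2 (0.062) or 4 (0.052), with log2 fold changes from 0.31 to 0.39 over the 8 fits that left out 1 library. Without both Cfd-rich libraries the log2 fold change was 0.35 (limma adjusted p = 0.10).

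In the annotation (GENCODE M21) 431 exon bases of Sec23a, 8.9% of its total, overlap Gm17529 on the opposite strand. Whether counting used strand is not given in the sources used here, so reads there cannot be assigned to either gene. Gm17529 had 12.5 ± 0.53 normalised reads in Con-Veh and 23.0 ± 4.66 in Con-DHT (log2 fold change 0.81, limma adjusted p = 0.064), levels far below those of Sec23a. Its part in the Sec23a difference was not tested. No window of 150 bases of a transcript of any of the 10 genes was found in a transcript of another gene.

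The other members of the export machinery were not called. Mia2, whose longest product TALI packs large lipoproteins at ER exit sites, gave 3512, 4586, 4543 and 4259 normalised reads in Con-Veh and 4712, 5891, 4994 and 4361 in Con-DHT. The groups overlapped, with Con-Veh replicate 1 and Con-DHT replicate 2 at the extremes. The log2 fold change was 0.24 (95% interval -0.02 to 0.49, limma adjusted p = 0.24). Mia3 encodes TANGO1, the partner organiser of TALI. Its values spread widely within groups, from 2825 to 4441 in Con-Veh and from 3119 to 4274 in Con-DHT, and its log2 fold change was 0.05 (-0.28 to 0.38). Sar1b, the GTPase that starts COPII assembly and is mutated in human chylomicron retention disease, ranged from 2328 to 2973 and from 2486 to 3066, with a log2 fold change of 0.10 (-0.12 to 0.31). Surf4, a cargo receptor for lipoproteins, ranged from 3099 to 3664 and from 3195 to 3617, with a log2 fold change of 0.01 (-0.17 to 0.18). Surf4 shares 144 exon bases with its opposite-strand neighbour Surf2, which gave 259.7 ± 13.1 and 240.2 ± 35.2. For Surf4 and Mia3 the sign of the log2 fold change depended on which library was left out. Of the 5 export genes 1 was called, higher in Con-DHT, against 4.60% of all tested genes.

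Within each library, ratios to a partner gene do not depend on how libraries are scaled to each other. The ratio of Sec23a to Sec23b, its close paralogue, was 3.01 ± 0.40 in Con-Veh and 3.39 ± 0.51 in Con-DHT (exact two-sided permutation p = 0.31, n = 4 per group). Sec23b itself gave 467 ± 54.2 and 531 ± 64.3 normalised reads (log2 fold change 0.18, limma adjusted p = 0.38). The log2 difference of the ratio, 0.17 (SE 0.15), was close to its error. Sar1b to Sar1a, the pair of SAR1 GTPases, was 1.99 ± 0.24 and 2.05 ± 0.32 (log2 difference 0.04, SE 0.14, exact p = 0.74). Mia3 to Mia2 was 0.828 ± 0.11 and 0.727 ± 0.089 (log2 difference -0.19, SE 0.12, exact p = 0.17). Adjusted over the 6 ratios tested, the p-values of these 3 were 0.47, 0.74 and 0.46.

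Of the other 27 genes of the COPII coat and ER exit, limma and edgeR called 0 (7.21% and 7.15% of all tested genes). DESeq2 called 3 (11.0% of all), and 6 had an unadjusted limma p of at most 0.05 (23.2% of all). Their median log2 fold change was 0.02, with 16 above 0. The largest were Sec24d, a cargo-binding coat subunit, at 0.36 (SE 0.10, limma adjusted p = 0.068; 1186 ± 168 and 1516 ± 125 normalised reads), and its relative Sec24c at 0.24 (SE 0.09, adjusted p = 0.12; 1905 ± 128 and 2256 ± 214). Sec24d passed without Con-Veh replicate 1 (0.44, adjusted p = 0.026) and Sec24c without Con-DHT replicate 3 (0.31, adjusted p = 0.047). When library totals were equalised after removing the abundant Mup genes, 4 genes of this list were called, all higher (Sec24c, Sec24d, Sec16a and Lman1). That scaling moved the median log2 fold change of all genes to 0.09 and called 1082 genes higher and 208 lower.

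Mttp and Tm6sf2, the lipid-loading genes, gave differences of opposite sign. Mttp encodes the large subunit of the microsomal triglyceride transfer protein. It gave 4934, 4638, 4652 and 4588 normalised reads in Con-Veh and 5169, 5048, 5079 and 5291 in Con-DHT. All Con-DHT livers were above all Con-Veh livers, but by little, and the log2 fold change of 0.13 (SE 0.06, 95% interval -0.01 to 0.27) was not called (limma adjusted p = 0.25, edgeR 0.28, DESeq2 0.14). Its exons share 457 bases with Trmt10a on the opposite strand, which gave 64.8 ± 9.14 and 59.7 ± 11.7 normalised reads.

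Tm6sf2, an ER membrane protein needed for full lipidation of VLDL and the site of a common human fatty liver variant, gave 970, 826, 824 and 777 normalised reads in Con-Veh and 368, 474, 780 and 650 in Con-DHT. Con-DHT replicate 3 lay within the Con-Veh range, and the other Con-DHT livers lay below it. The coefficient of variation was 9.82% in Con-Veh and 32.2% in Con-DHT. The log2 fold change was -0.63 (SE 0.20, 95% interval -1.08 to -0.19), short of the limma threshold (adjusted p = 0.089) and that of edgeR (0.11) but past that of DESeq2 (0.047). Without Con-DHT replicate 3 it was -0.80 (limma adjusted p = 0.029), and without both Cfd-rich libraries it was -1.02 (0.0083). It was not called in the other 7 fits that left out 1 library (adjusted p from 0.092 to 0.19), and was smallest at -0.44 without Con-DHT replicate 1 (0.15) and next at -0.57 without Con-DHT replicate 2 (0.19) or Con-Veh replicate 1 (0.18).

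The ratios of Mttp to its partners overlapped between groups. Mttp relative to P4hb, the disulfide isomerase that forms its small subunit, was 0.327 ± 0.055 in Con-Veh and 0.355 ± 0.045 in Con-DHT (log2 difference 0.13, SE 0.16, exact two-sided permutation p = 0.40, n = 4 per group). Mttp relative to Apob, the structural protein of VLDL, was 0.073 ± 0.0052 and 0.067 ± 0.0078 (log2 difference -0.12, SE 0.10, exact p = 0.23). Adjusted over the 6 ratios these were 0.48 and 0.46. Apob gave 64936 ± 3643 and 77428 ± 7045 normalised reads, a log2 fold change of 0.25 (95% interval -0.06 to 0.56), with an adjusted p of 0.31 in limma, 0.18 in edgeR and 0.047 in DESeq2. P4hb gave 14725 ± 2748 and 14633 ± 1605.

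Of 18 other genes of the particle core and its lipid supply, 2 rose and 1 fell (16.7% called, against 7.21% of all tested genes, 4.60% higher and 2.61% lower), with a median log2 fold change of -0.04. Ces3b and Ces3a, carboxylesterases of the hepatocyte ER, rose most. Ces3b had 1998, 2046, 2234 and 1983 normalised reads in Con-Veh and 6337, 5085, 2904 and 6141 in Con-DHT. Even the lowest Con-DHT liver, replicate 3, was above all Con-Veh livers, and the log2 fold change was 1.25 (SE 0.21, limma adjusted p = 0.0066). Ces3a rose by 0.84 in log2 terms (SE 0.16, adjusted p = 0.012), from 13507 ± 2191 to 24257 ± 4621 normalised reads. Soat2, which makes the cholesteryl esters of the particle core, gave 810 ± 72.8 and 603 ± 67.4 normalised reads, a log2 difference of -0.43 (SE 0.10, adjusted p = 0.028). Calls for Ces3a and Ces3b were kept in all 8 fits that left out 1 library, while Soat2 was called in those without Con-Veh replicate 1 (-0.48, adjusted p = 0.024) or Con-DHT replicate 1 (-0.49, 0.021) and in the other 6 had an adjusted p between 0.058 and 0.081. Without both Cfd-rich libraries Ces3a and Ces3b were called by limma and Soat2 was not. Ces1d, the triacylglycerol hydrolase that mobilises stored lipid for VLDL, had a log2 fold change of -0.46 (95% interval -1.01 to 0.09), and its groups overlapped.

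**Figure D3:**
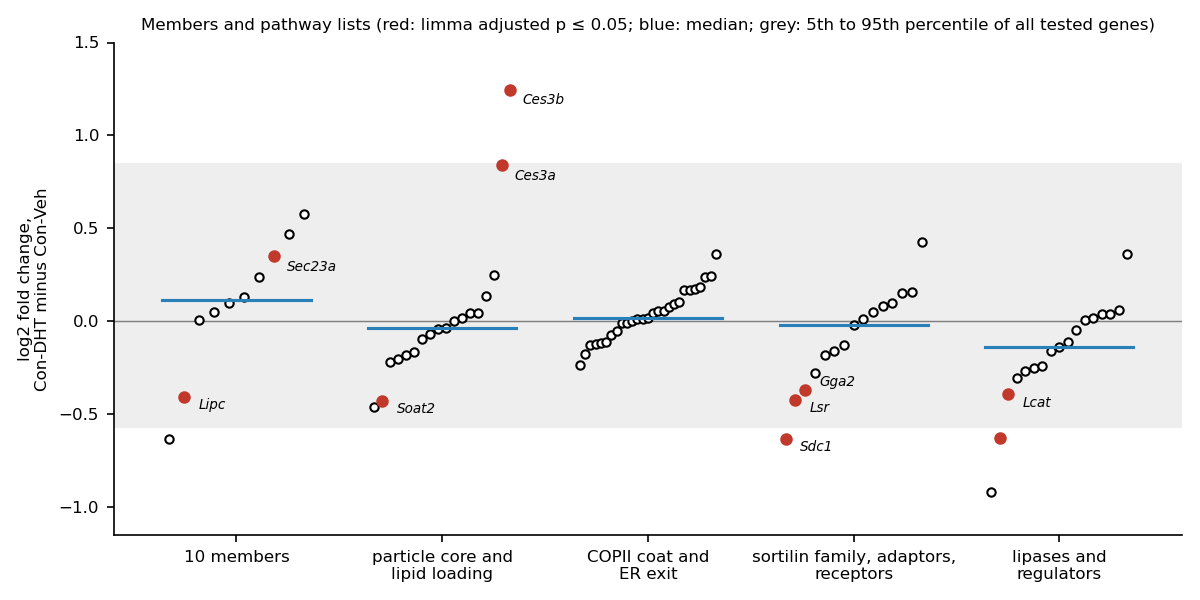
Log2 fold change, Con-DHT minus Con-Veh (y axis), of each of the 10 genes and of the genes in the 4 pathway lists (points, ordered by value within a list), with list medians as blue lines and the 5th to 95th percentile of all tested genes in grey. Filled red points are the genes with a limma adjusted p of at most 0.05, with symbols for those described in the text, and the COPII list has none.

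Sort1 encodes sortilin, a Golgi receptor that binds apolipoprotein B and steers it towards secretion or degradation. Its values were 232, 258, 276 and 226 normalised reads in Con-Veh and 467, 299, 225 and 441 in Con-DHT. Con-DHT replicate 3 was the lowest of all 8 livers, and the other Con-DHT livers exceeded every Con-Veh liver. The log2 fold change was 0.47 (SE 0.21, 95% interval 0.01 to 0.94) and was not called (limma adjusted p = 0.21, edgeR 0.15, DESeq2 0.10). Without Con-DHT replicate 3 it was 0.67 (limma adjusted p = 0.040), and in the other 7 fits that left out 1 library the adjusted p was between 0.22 and 0.42, with the smallest log2 fold change without Con-DHT replicate 1 (0.32) and then replicate 4 (0.35). Without both Cfd-rich libraries it was 0.60 (adjusted p = 0.12). Sort1 shares 338 exon bases with Gm12523 on the opposite strand, which was not in the table.

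Of the sortilin relatives, Golgi adaptors and lipoprotein receptors, 15 of 18 listed genes were measured, and Sorcs1, Sorcs2 and Sorcs3 were not in the table. Of the 15, 0 rose and 3 fell (20% called, against 7.21% of all tested genes and 2.61% lower), with a median log2 fold change of -0.02. Sdc1, the heparan sulfate proteoglycan that captures remnants on hepatocytes, gave 6055, 6040, 5423 and 6853 normalised reads in Con-Veh and 3391, 3922, 4315 and 4110 in Con-DHT. The groups were well apart, with a log2 fold change of -0.63 (SE 0.10, limma adjusted p = 0.0046). Lsr, the lipolysis-stimulated lipoprotein receptor, went from 1827 ± 164 to 1359 ± 75.9, a log2 difference of -0.42 (SE 0.08, adjusted p = 0.011). Gga2, an adaptor that binds the tail of sortilin, gave 395, 468, 393 and 413 normalised reads in Con-Veh and 317, 320, 311 and 339 in Con-DHT, a log2 difference of -0.37 (SE 0.08, adjusted p = 0.024). The calls of Sdc1 and Lsr held in all 8 fits that left out 1 library. Gga2 was called without Con-Veh replicate 1 (adjusted p = 0.036) or 3 (0.036) or Con-DHT replicate 4 (0.038) and lay between 0.056 and 0.067 without any of the other 5. Without both Cfd-rich libraries Sdc1 and Lsr were called by limma and Gga2 was not.

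The lipases Lipc and Lipg gave differences of opposite sign. Lipc encodes hepatic lipase, made by hepatocytes, which hydrolyses triglyceride and phospholipid of remnants and high density lipoprotein (HDL). Its values were 2671, 3218, 3674 and 3413 normalised reads in Con-Veh and 2667, 2522, 2416 and 2153 in Con-DHT. The groups did not overlap, although Con-Veh replicate 1 and Con-DHT replicate 1 lay side by side. The log2 fold change was -0.41 (SE 0.11, 95% interval -0.64 to -0.17), with an adjusted p of 0.047 in limma, 0.053 in edgeR and 0.0084 in DESeq2. Without Con-Veh replicate 1 it was -0.50 (limma adjusted p = 0.015). The call was lost without any of the other 7 libraries: the limma adjusted p was 0.10, 0.10 and 0.12 without Con-Veh replicates 2, 3 and 4, and 0.060, 0.088, 0.085 and 0.10 without Con-DHT replicates 1 to 4. Without both Cfd-rich libraries it was -0.31 (adjusted p = 0.22).

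Lipg encodes endothelial lipase, a phospholipase acting on HDL that is made by endothelial and other cells. It gave 211, 276, 237 and 225 normalised reads in Con-Veh and 359, 464, 257 and 361 in Con-DHT. As for Tm6sf2, Con-DHT replicate 3 lay within the Con-Veh range and the other Con-DHT livers lay beyond it. The log2 fold change was 0.58 (SE 0.16, 95% interval 0.21 to 0.94), with an adjusted p of 0.062 in limma, 0.051 in edgeR and 0.012 in DESeq2. Without Con-DHT replicate 3 it was 0.73 (limma adjusted p = 0.015), and without both Cfd-rich libraries 0.79 (0.033). It was not called in the other 7 fits that left out 1 library (adjusted p from 0.072 to 0.14), and was smallest at 0.45 without Con-DHT replicate 2 (0.13). Of 8 endothelial markers limma called 2 lower in Con-DHT, as given above, and their part in the Lipg difference was not tested.

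The ratio of Lipg to Lipc set the lipases against each other within a liver. It was 0.079, 0.086, 0.064 and 0.066 in Con-Veh and 0.135, 0.184, 0.106 and 0.168 in Con-DHT. The groups did not overlap, and the mean went from 0.074 ± 0.010 to 0.148 ± 0.034, a log2 difference of 0.99 (SE 0.20). The exact two-sided permutation p was 0.029 with n = 4 per group, the smallest possible, and 0.17 after adjustment over the 6 ratios. A lone ratio at that floor cannot go below 0.17 after this adjustment, so the adjusted test could not pass 0.05. The difference combines the log2 fold changes of Lipg (0.58) and Lipc (-0.41) given above and is not a separate result. Leaving out 1 library at a time gave log2 differences between 0.87 and 1.13.

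**Figure D4:**
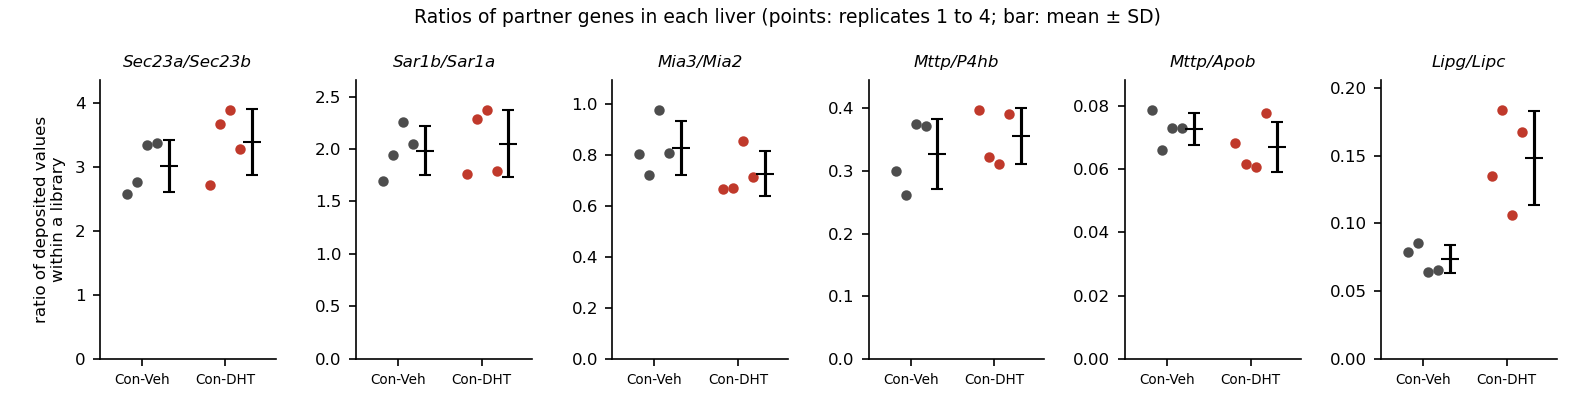
Ratios of deposited values within each library (y axes, linear from 0) for 6 gene pairs in 4 Con-Veh and 4 Con-DHT livers (points, replicates 1 to 4 from left to right), with mean ± SD beside them. The Lipg to Lipc ratio is the only one of the 6 without overlap between groups.

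Of 18 listed lipases and lipase regulators, 17 were measured (Liph was not in the table), 0 rose and 2 fell (11.8% called, against 7.21% of all tested genes and 2.61% lower), and the median log2 fold change was -0.14. Lcat, which esterifies cholesterol on HDL, went from 9292 ± 873 to 7075 ± 629 without overlap, a log2 difference of -0.39 (SE 0.10, adjusted p = 0.036). Angptl8, a secreted regulator of lipoprotein lipase, had the largest difference of the list at -0.92 (SE 0.37), but its Con-Veh livers ranged from 235 to 764 and it was not called (adjusted p = 0.17). Lcat was called without Con-DHT replicate 3 (-0.43, adjusted p = 0.045), while leaving out any of the other libraries gave an adjusted p between 0.051 and 0.10. Across the 4 lists 8 of 77 measured genes (10.4%) were called, 2 higher and 6 lower, against 7.21% of all tested genes (4.60% higher and 2.61% lower), with a median log2 fold change of -0.01.

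**Figure D5:**
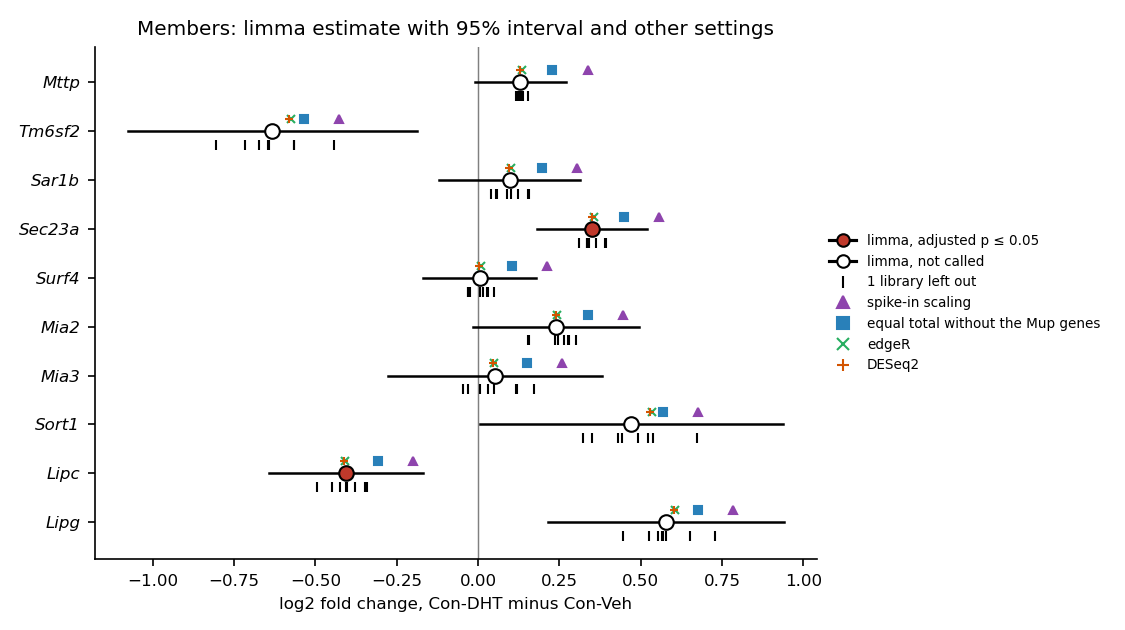
Log2 fold change, Con-DHT minus Con-Veh (x axis), of the 10 genes: limma estimate (circle, red where the adjusted p is at most 0.05) with its 95% interval (line), fits leaving out 1 library (ticks below), and other scalings and tests (symbols above). Scaling by spike-ins moves all 10 to the right, together with the median of all genes (0.20), and leaves Tm6sf2 and Lipc below 0.

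The call for Lipc depended on how libraries were scaled to each other. Scaling by the synthetic spike-in RNAs moved the median log2 fold change of all genes to 0.20, with Sec23a at 0.56 and Lipc at -0.20, and called 0 of the 10 genes. The spike-in factors ranged from 0.675 (Con-Veh replicate 4) to 1.49 (Con-Veh replicate 1), a wider range than in Con-DHT (0.839 to 1.02). With library totals equalised after removing Mup genes the median of all genes was 0.09, Sec23a was at 0.45 (limma adjusted p = 0.0046), Lipg passed (0.68, 0.031) and Lipc did not (-0.31, 0.12). No member changed sign under any scaling.

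Genes with the pattern most like each called member were found by the root mean square difference of centred log2 values over the 8 libraries. For Sec23a these were Lrba (0.049), Slc45a4 (0.051) and Cog4 (0.052), from the 3479 genes with a log2 fold change in the same direction and at least 0.5 times as large. Cog4 encodes a subunit of the Golgi tethering complex COG and gave 933 ± 85.2 and 1147 ± 73.3 normalised reads. Lrba gave 360 ± 18.5 and 455 ± 32.3, and was the only one of these called (limma adjusted p = 0.032). For Lipc they were Stom (0.070), Soat2 (0.078) and Tmem35b (0.079), from 3197 genes. Soat2, described above, was called, while Stom (978 ± 164 and 745 ± 81.9) and Tmem35b (98.2 ± 7.30 and 78.5 ± 6.10) were not.

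Promoter sequences from RefSeq (build GRCm38.p6, 250 bases before to 50 after the start) were matched for 7 of the 10 genes, as 10 windows. Tm6sf2, Sort1 and Lipg were not matched. The windows of the called members are shown because they differed in direction, up to 30 bases after the start, with matches to searched motifs in capitals. That of Sec23a, chr12:59011988-59012267 on the minus strand, holds a cyclic AMP response core (TGACGT) beginning 6 bases after the start. The first of 2 Lipc windows, chr9:70952192-70952471 on the minus strand, holds 3 CCAAT boxes, beginning at positions -135 (on the reverse strand, so read ATTGG), -14 and -7.
Sec23a: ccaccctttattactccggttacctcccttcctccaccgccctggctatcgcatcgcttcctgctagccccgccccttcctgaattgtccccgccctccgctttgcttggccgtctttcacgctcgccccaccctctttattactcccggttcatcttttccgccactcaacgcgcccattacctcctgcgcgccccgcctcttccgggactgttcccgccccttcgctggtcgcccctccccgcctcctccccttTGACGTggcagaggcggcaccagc
Lipc: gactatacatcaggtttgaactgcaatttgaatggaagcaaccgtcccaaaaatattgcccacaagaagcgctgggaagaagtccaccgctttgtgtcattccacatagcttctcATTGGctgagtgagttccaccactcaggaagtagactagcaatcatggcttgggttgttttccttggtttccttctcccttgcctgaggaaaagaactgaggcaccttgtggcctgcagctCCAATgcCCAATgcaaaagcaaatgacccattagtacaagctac

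Motifs were searched as exact letters on both strands in the full windows. TGACGT was found in 3 of the 10 windows, of 3 genes (Sec23a, Mttp and Mia3), and in 7.51% of all 32851 promoters. CCAAT was found in 6 of the 10 windows, of 4 genes (Lipc, Sar1b, Mia2 and Mia3), and in 37.4% of all promoters. The half-site of androgen response elements, AGAACA, occurred in 1 window (Mttp; 19.0% of all), TATAAA in 1 (Mia2; 13.6%) and the STAT5 consensus TTCNNNGAA in 0 (8.30%). The 3 genes with TGACGT had log2 fold changes of 0.35, 0.13 and 0.05. A match describes these letters only, and promoters of genes that were called and not called shared them.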

How the data were processed

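Liver RNA of 4 Con-Veh and 4 Con-DHT mice was sequenced, with groups taken from the labels. Per the study's methods and the submitters' processing notes, reads were trimmed (Trimmomatic), aligned (STAR, GRCm39) and counted on exons (featureCounts). The authors deposited a normalised signal: read counts divided by 1 DESeq2 size factor per library. Features with few reads were absent (fewest 81 over all libraries). Dividing by the worth of 1 read gave whole reads for 100% of values (tolerance 0.001).

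The main test was limma 3.58.1 (R 4.3.3, intensity trend) on log2(value + 1), so fold changes of low genes are understated, for the 14312 mouse genes averaging 10 or more. P-values were Benjamini-Hochberg adjusted and called at 0.05 or below. edgeR 4.0.16 (quasi-likelihood, TMM) called 1024 genes and DESeq2 1.42.0 called 1569 on the recovered reads. Ratios had exact permutation tests (Python 3.11.15, scipy 1.17.1). The limma, edgeR and DESeq2 fits were tested on simulated data, with a limit on false calls for limma and edgeR only. Alternatives were pseudocounts 0.1 and 5, dropping the filter or raising it to a mean of 50, 4 other scalings, 2 variance models, a replicate block, both count tests and leaving out each library. Leaving out both Con-DHT libraries highest in Cfd was added after seeing the data.

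The 10 genes, the 4 lists and the markers were chosen with earlier results of these data known. Named are all 10, list genes called or among the 2 largest, ratio partners and the 3 nearest patterns, while Ces1d, Sec16a, Lman1 and the genes overlapping members were chosen after their values were seen. Exon lengths came from GENCODE M21 (GRCm38), a different build, so gene coordinates are not given. P-values measure the spread between these mice only. Genes of the lists that are counted but not named are not reported here.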

Additional observations from a re-analysis of the deposited data

Results flagged for a closer look

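In 3 of 80 group values examined, 1 library lay far from the other 3 of its group (Dixon's test), and chance alone marks about 1 in 20 such groups. Sec23a in Con-Veh replicate 4 had 1507.4 normalised reads, and the next highest Con-Veh liver had 1360.8. Apob in Con-Veh replicate 2 had 70351 normalised reads against 63822 in the next liver. The summed neutrophil and lymphocyte markers were 309.8 in Con-Veh replicate 2 and 223.61 in the next Con-Veh liver. Without Con-Veh replicate 4 the log2 fold change of Sec23a was 0.39 (limma adjusted p = 0.029), and without Con-Veh replicate 2 it was 0.34 (0.061).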

How the results depend on the processing

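Among comparisons of each named gene with its value under another setting, 471 kept direction and side of the threshold, 70 lost and 18 gained the call, and 13 changed sign. Genes called overall numbered 1032 (658 higher, 374 lower), against 648 with a mean of at least 50, 644 with spike-in scaling (570 higher, 74 lower), 1569 with DESeq2, 475 without both Cfd-rich Con-DHT libraries, and 633 to 905 leaving out 1 library. An equal total without the Mup genes gave 1082 higher and 208 lower. Of the 10 genes, 1 was called with a mean of at least 50, quantile normalisation or edgeR, 0 with spike-in scaling or without the trend, 4 with DESeq2, and 0 to 4 leaving out 1 library. For the particle core, 1 was called with the replicate block (Ces3b, with the calls of Ces3a and Soat2 lost) and 2 to 3 leaving out 1 library. Soat2 was also not called without the Mup genes, with spike-in scaling, without the trend or without both Cfd-rich libraries. Ces3a and Ces3b were called under each of these. For COPII, 1 was called with quantile normalisation or array weights, 4 without the Mup genes, 3 with DESeq2 and 0 to 1 leaving out 1 library. For the sortilin and receptor list, 0 were called with spike-in scaling and 2 to 4 leaving out 1 library. Gga2 lost its call without the Mup genes, with the replicate block and without both Cfd-rich libraries, where Sdc1 and Lsr were called. For lipases and regulators, 1 was called with a mean of at least 50 or edgeR (Lcat) and 1 with the replicate block (Angptl8, with both main calls lost), 0 without the Mup genes, with spike-in scaling, without the trend or without both Cfd-rich libraries, and 0 to 1 leaving out 1 library. The sign changed for Surf4 without Con-Veh replicate 3 (-0.031) or 4 (-0.024), Con-DHT replicate 4 (-0.030) or both Cfd-rich libraries (-0.046), with 0.049 the highest value leaving out 1 library. It changed for Mia3 without Con-Veh replicate 1 (-0.045) or Con-DHT replicate 3 (-0.032), the highest being 0.17. It changed for P4hb with edgeR (-0.0046) and DESeq2 (-0.010), without Con-Veh replicate 3 (-0.073) or 4 (-0.074), Con-DHT replicate 2 (-0.031) or 3 (-0.052), or both Cfd-rich libraries (-0.027), the highest being 0.098. The causes were not tested.

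Replicate numbers are shared by the groups but do not pair the mice: same-numbered livers had correlations of -0.15, 0.055, 0.0068 and -0.034 in their deviations from group means. With the number as a block, limma called 700 genes, and of the 10 genes Sec23a and Lipg. The block gave the same log2 ratios, but a sign-flip test over 4 pairs cannot reach 0.05. With the p of a single tail doubled, 3 against 4 cannot go below 0.057. With 4 livers a group, differences near the SE of a gene were not detectable.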

Other observations

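For each gene the Con-DHT liver least displaced from the Con-Veh mean in the direction of the gene's log2 fold change was found. It was replicate 3 for 3 of the 10 genes (Tm6sf2, Sort1 and Lipg), as many as for replicate 1 and about the share over all 14312 tested genes (30.7%). Of the 658 genes called higher in Con-DHT, it was replicate 3 for 291 (44.2%), against 137 each for replicates 1 and 2 and 93 for replicate 4. Of the 374 genes called lower it was replicate 3 for 139 (37.2%), against 92, 68 and 75. The calls used the same libraries, so these shares are a description only.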
